A study of Homo sapiens with 4 samples.

Results

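The genes described here are 10 genes of myeloid granules and myeloid surface receptors: MPO, AZU1, PRTN3, ELANE, LYZ, TYROBP, FCER1G, AIF1, MS4A3 and CSF1R. They were taken by symbol from the 58229 genes of the deposited expression table, and each symbol matched a single row. RNA sequencing had been performed on CD31+ cells at day 8 of hematopoietic differentiation of H1, a long-established line of human embryonic stem cells. H1 cells without HAND1 overexpression (Control, 2 libraries) were compared with H1 cells that overexpressed HAND1 (HAND1_OE, 2 libraries). Both groups were first given activin A and BMP4, then VEGF and bFGF. The study's scheme shows doxycycline given in the last days before collection to switch on HAND1, so the overexpression covers the later steps only. The vector, its promoter and what the Control cells carried are not given in the sources used here. CD31, encoded by PECAM1, marks endothelium and also early blood cells, and the study asked whether sustained HAND1 alters the passage of hemogenic endothelium to blood progenitors.

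Myeloid cells are the granulocytes, monocytes and macrophages of the blood and their precursors. As background, promyelocytes fill their azurophil granules with myeloperoxidase (MPO), with the serine proteases neutrophil elastase (ELANE) and proteinase 3 (PRTN3), and with the related but catalytically inactive azurocidin (AZU1). Lysozyme (LYZ) is stored in granules and secreted by macrophages. TYROBP (DAP12) and FCER1G are small membrane adaptors that pair with receptors and signal through an immunoreceptor tyrosine-based activation motif (ITAM), which recruits kinases such as SYK. CSF1R is the receptor for macrophage colony-stimulating factor, MS4A3 is a membrane protein of granulocyte and monocyte progenitors, and AIF1 (IBA1) is an actin-binding protein of macrophages and microglia.

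The values are FPKM, fragments scaled to transcript length and to the depth of the library, so that levels can be compared between genes. Changes are differences of log2(FPKM + 1), HAND1_OE minus Control, a scale that compresses the changes of genes at low levels. The adjusted p is that of limma over all 14622 genes tested, two-sided, and a gene was called at an adjusted p under 0.05. On simulated data more calls were false than this threshold implies, so calls close to it are less certain. HAND1 itself was at 12.1 and 14.3 FPKM in Control, against 520.5 and 517 FPKM in HAND1_OE. PECAM1 was at 95.5 and 141 FPKM in Control, against 91.97 and 160.2 FPKM in HAND1_OE, and a list of 12 endothelial markers summed to 2278 and 1786 FPKM in Control and to 2313 and 2005 FPKM in HAND1_OE. The libraries differed little in size, with depths relative to Control replicate 1 of 0.98 to 1.19 and FPKM totals of 536284 to 606609. No label says that the 2 libraries of a group came from separate cultures, so p-values measure the spread between these libraries, which may be technical.

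Of the 10 genes, 5 were called lower in HAND1_OE (AIF1, FCER1G, MS4A3, TYROBP and LYZ), 0 were called higher, 1 was tested and not called (AZU1) and 4 did not reach 1 FPKM in 2 libraries and were not tested (CSF1R, MPO, PRTN3 and ELANE). None of the tested members had a rise at an unadjusted p under 0.05 in limma. Over all genes tested, 2.11% were called lower and 2.04% were called higher, and the median change was -0.078. In 7 of the 10 genes both HAND1_OE libraries lay below both Control libraries, an arrangement that 30.1% of all genes tested also showed. In 0 of the 10 did both lie above, which 16.2% of all genes tested showed. The 4 untested genes of the 10 lie outside that set. LYZ reached 1 FPKM only in the Control libraries, so its entry into the test and its direction are not independent. TYROBP reached 1 FPKM in only 1 HAND1_OE library (1.73 and 0.510 FPKM), so its entry needed a Control library too. The same holds for AZU1 (1.004 and 0.355 FPKM in HAND1_OE). In RNA from a whole population, fewer cells of a type and less RNA per cell cannot be told apart.

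**Figure D1:**
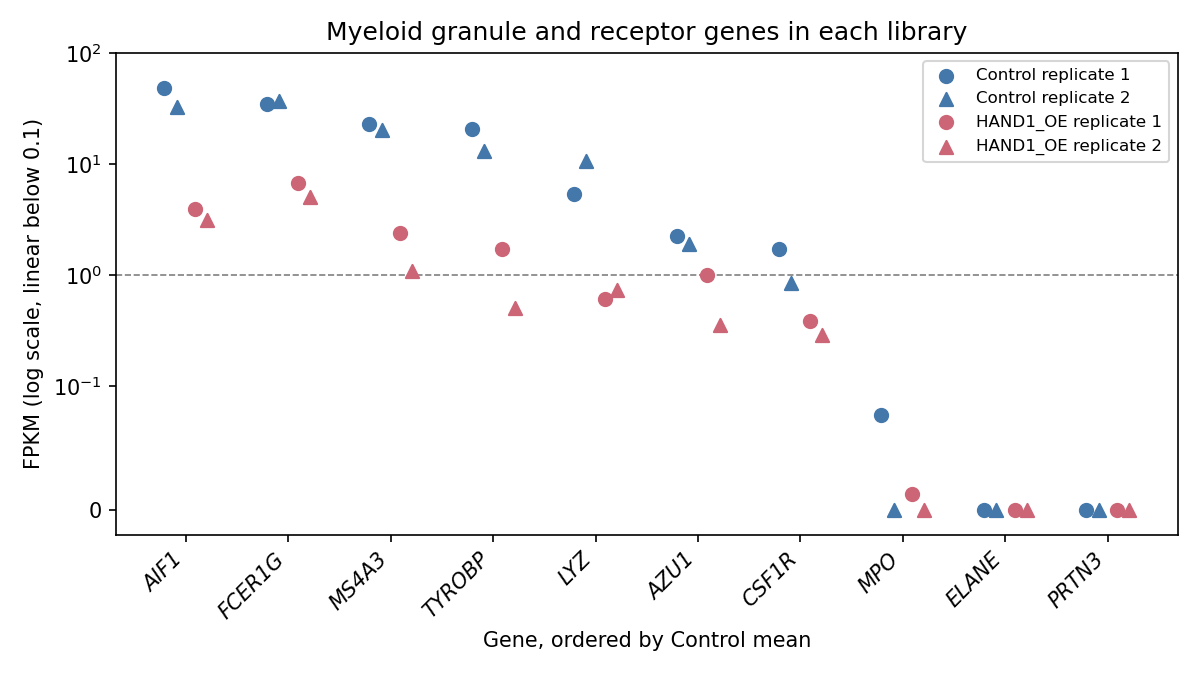
FPKM of the 10 genes in each of the 4 libraries, on a log scale that is linear below 0.1, with Control in blue, HAND1_OE in red and the dashed line at 1 FPKM. AIF1, FCER1G, MS4A3, TYROBP, LYZ, AZU1 and CSF1R have both red points below both blue points, and ELANE and PRTN3 lie at 0 in every library.

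The levels in Control spanned a wide range. AIF1 averaged 40.5 ± 11.4 FPKM (SD, n = 2) and FCER1G 35.9 ± 1.08 FPKM, and their ranges overlapped. MS4A3 (21.8 ± 1.86 FPKM) and TYROBP (16.95 ± 5.53 FPKM) followed, again with overlapping ranges. LYZ (8.01 ± 3.68 FPKM), AZU1 (2.09 ± 0.226 FPKM) and CSF1R (1.28 ± 0.604 FPKM) came next, and each lay below the range of the gene before it. MPO, ELANE and PRTN3 were at or near 0. In HAND1_OE the order of the upper genes was FCER1G, AIF1, MS4A3 and TYROBP, and the ranges of FCER1G and AIF1 no longer overlapped. AIF1 stood above 90.4% and 86.2% of protein-coding genes in the Control libraries, and above 51.9% and 48.2% in the HAND1_OE libraries. TYROBP moved from above 78.5% and 70.3% of protein-coding genes to above 43.2% and 33.5%.

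Of the granule proteins, MPO, ELANE and PRTN3, which define the promyelocyte, were listed at or near 0, while AZU1 and LYZ had measurable levels. The granule side of the group's name thus rests on AZU1 and LYZ in these libraries. ELANE (GRCh38 chromosome 19, 851014 to 856247) and PRTN3 (chromosome 19, 840960 to 848175) were listed at 0 in all 4 libraries. MPO (chromosome 17, 58269856 to 58280935) was at 0.0769 and 0 FPKM in Control, against 0.0130 and 0 FPKM in HAND1_OE. No fold change is given for these genes, and no difference could be assessed. SLC25A6, a mitochondrial carrier used by most cells, is also listed at 0 in every library, so a listed 0 can be a failed estimate. SLC25A6 lies in the pseudoautosomal region and has a copy on Y, which ELANE and PRTN3 do not.

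AZU1 (ENSG00000172232.9, chromosome 19, 825097 to 832018), which heads the same cluster of 3 protease genes within 31151 bases, was the only member of the cluster above 0. It was at 2.25 and 1.93 FPKM in Control, against 1.004 and 0.355 FPKM in HAND1_OE. Both HAND1_OE libraries lay below both Control libraries, but the change of -0.91 (standard error 0.264) did not pass (adjusted p = 0.156). With a pseudocount of 0.1 the change was -1.62 (adjusted p = 0.211).

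The sequences upstream of AZU1 and PRTN3 are shown because these neighbours on the same strand were listed at different levels. Whether the sequences bear on that was not tested. Each run is the 250 bases before a RefSeq transcription start (GRCh38.p14), printed on the strand of the gene. Of the 10 genes, 7 are in the RefSeq promoter table, with 9 starts between them, and MPO, ELANE and LYZ are not. Capitals mark matches on either strand to 4 short cores: GAGGAAG for PU.1, TGTGGT for RUNX factors, TTNNGNAA for CEBP factors and CATCTG for the E-box bound by HAND1 with its E-protein partners. Of 35116 promoters of this length, 11.2% hold the PU.1 core, 11.0% the RUNX core, 33.2% the CEBP core and 12.2% the E-box.
AZU1, chr19:827587-827836, plus strand: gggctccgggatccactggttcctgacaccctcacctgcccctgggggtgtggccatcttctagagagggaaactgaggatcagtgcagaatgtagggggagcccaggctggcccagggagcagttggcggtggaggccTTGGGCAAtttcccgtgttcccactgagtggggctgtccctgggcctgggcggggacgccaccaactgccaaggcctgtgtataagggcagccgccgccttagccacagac
PRTN3, chr19:840749-840998, plus strand: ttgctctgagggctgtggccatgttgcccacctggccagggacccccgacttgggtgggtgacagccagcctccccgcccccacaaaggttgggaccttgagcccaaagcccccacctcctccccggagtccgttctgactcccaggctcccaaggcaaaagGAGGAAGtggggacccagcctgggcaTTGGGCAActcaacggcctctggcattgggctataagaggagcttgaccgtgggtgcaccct
AZU1 holds a CEBP core at position -111, counted from its start to the leftmost letter of the match. PRTN3 holds a CEBP core at -62 and a PU.1 core at -88. A match of letters is a description and not a binding site, and the cores are short enough to occur often.

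LYZ (ENSG00000090382.6, chromosome 12, 69348341 to 69354234) was the other granule protein with a measurable level. It was at 5.41 and 10.6 FPKM in Control, against 0.617 and 0.739 FPKM in HAND1_OE. The Control libraries stood well apart from each other, and both lay above the HAND1_OE libraries. In FPKM, the gap between the groups was smaller than the spread within Control. The mean was 11.8 times higher in Control, and the change was -2.36 (standard error 0.313, adjusted p = 0.0220). An antisense gene, AC020656.1, overlaps LYZ but was at 0.000225 FPKM or below in every library.

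Both ITAM adaptors fell in HAND1_OE. TYROBP (ENSG00000011600.11, chromosome 19, 35904401 to 35908295) was at 20.9 and 13.04 FPKM in Control, against 1.73 and 0.510 FPKM in HAND1_OE. Its mean was 15.2 times higher in Control, but the ratio was 9.83 without HAND1_OE replicate 2 and 33.3 without HAND1_OE replicate 1. The change was -3.11 (standard error 0.357, adjusted p = 0.0153). FCER1G (ENSG00000158869.10, chromosome 1, 161215234 to 161220699) was at 35.1 and 36.6 FPKM in Control, against 6.80 and 5.11 FPKM in HAND1_OE. The change was -2.42 (standard error 0.179, adjusted p = 0.00700), a mean 6.02 times higher in Control. FCER1G had the highest level of the 10 genes in both HAND1_OE libraries, where AIF1 had the highest mean in Control.

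The promoters of the 2 adaptors are shown because both genes were called lower. Whether the cores they hold bear on the fall was not tested.
TYROBP, chr19:35908296-35908545, minus strand: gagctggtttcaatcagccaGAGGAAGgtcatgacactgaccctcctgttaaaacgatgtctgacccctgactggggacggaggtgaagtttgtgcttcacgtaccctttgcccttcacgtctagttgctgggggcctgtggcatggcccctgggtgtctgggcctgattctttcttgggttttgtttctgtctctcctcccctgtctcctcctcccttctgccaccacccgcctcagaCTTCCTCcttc
FCER1G, chr1:161215045-161215294, plus strand: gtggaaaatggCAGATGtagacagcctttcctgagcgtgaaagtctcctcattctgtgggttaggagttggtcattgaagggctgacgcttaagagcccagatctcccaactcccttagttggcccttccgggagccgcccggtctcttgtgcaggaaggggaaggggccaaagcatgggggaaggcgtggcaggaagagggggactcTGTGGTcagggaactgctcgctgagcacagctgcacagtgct
TYROBP holds 2 PU.1 cores, at -230 and -11, and none of the other cores. FCER1G holds a RUNX core at -42 and an E-box at -239, and no PU.1 or CEBP core in these letters.

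AIF1 and MS4A3 fell as well, by amounts close to that of TYROBP. AIF1 (ENSG00000204472.12, chromosome 6, 31615184 to 31617021) was at 48.5 and 32.4 FPKM in Control, against 3.94 and 3.14 FPKM in HAND1_OE, a change of -3.17 (standard error 0.236, adjusted p = 0.00700). MS4A3 (ENSG00000149516.13, chromosome 11, 60056587 to 60071128) was at 23.1 and 20.5 FPKM in Control, against 2.40 and 1.08 FPKM in HAND1_OE, a change of -3.09 (standard error 0.267, adjusted p = 0.0078). The means were 11.4 and 12.5 times higher in Control, and for MS4A3 the ratio was 20.1 without HAND1_OE replicate 1. For both genes the groups were far apart, and the gap between them was wider than the spread within either.

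AIF1 has 2 RefSeq starts, and FPKM per gene does not separate them, so both upstream sequences are shown beside that of MS4A3.
AIF1, upstream start, chr6:31614984-31615233, plus strand: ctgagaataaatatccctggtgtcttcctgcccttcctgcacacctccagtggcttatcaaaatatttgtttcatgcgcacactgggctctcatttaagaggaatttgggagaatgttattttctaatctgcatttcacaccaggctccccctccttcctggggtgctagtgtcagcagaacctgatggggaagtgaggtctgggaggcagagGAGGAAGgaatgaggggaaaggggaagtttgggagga
AIF1, downstream start, chr6:31615741-31615990, plus strand: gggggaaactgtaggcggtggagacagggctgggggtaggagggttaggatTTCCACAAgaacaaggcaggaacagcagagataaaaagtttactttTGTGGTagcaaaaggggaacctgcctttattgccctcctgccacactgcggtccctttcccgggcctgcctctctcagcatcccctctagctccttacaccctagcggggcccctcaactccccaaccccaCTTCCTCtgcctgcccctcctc
MS4A3, chr11:60056415-60056664, plus strand: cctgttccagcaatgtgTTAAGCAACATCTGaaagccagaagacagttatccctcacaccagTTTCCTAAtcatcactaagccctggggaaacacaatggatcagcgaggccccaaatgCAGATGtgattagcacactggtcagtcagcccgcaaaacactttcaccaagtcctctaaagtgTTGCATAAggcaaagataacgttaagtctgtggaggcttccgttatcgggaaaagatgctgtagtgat
Each AIF1 start holds a PU.1 core, at -37 for the upstream and -22 for the downstream start, and the latter also holds a RUNX core at -153 and a CEBP core at -199. MS4A3 holds CEBP cores at -233, -188 and -68 and E-boxes at -225 and -131, where the first CEBP core and the first E-box adjoin in a single run of capitals. Over the 7 genes in the promoter table, 4 hold a PU.1 core at some start, 3 a RUNX core, 5 a CEBP core and 2 an E-box. The shares over all promoters are per start, and by start the counts were 5, 3, 5 and 2 of 9. A CSF1R start not shown here gives a PU.1 core at -20, a RUNX core at -71 and a CEBP core at -82. With so few starts, no difference from those shares was tested.

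CSF1R (ENSG00000182578.13, chromosome 5, 150053291 to 150113372) was low throughout. It was at 1.71 and 0.853 FPKM in Control, against 0.388 and 0.292 FPKM in HAND1_OE. The groups did not overlap, but only 1 library reached 1 FPKM, so the gene was not tested. In the fit of all 29860 genes above 0 its change was -0.74 (standard error 0.243, limma adjusted p = 0.388). A processed pseudogene within CSF1R, RPL7P1, was at 4.42 to 6.40 FPKM on the opposite strand. Of the ligands of CSF1R, CSF1 was at 5.04 and 3.71 FPKM in Control, against 11.9 and 9.27 FPKM in HAND1_OE, a change of 1.11 that did not pass (adjusted p = 0.0553), and IL34 stayed under 1 FPKM in every library.

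The level of SPN, which encodes CD43, the surface protein by which the study counted blood progenitors, fell in the same libraries. SPN was at 18.9 and 21.1 FPKM in Control, against 1.92 and 0.974 FPKM in HAND1_OE (change -3.13, standard error 0.236, adjusted p = 0.00700). The 10 genes summed to 137 and 116 FPKM in Control and to 16.9 and 11.2 FPKM in HAND1_OE. Divided by SPN of the same library, the sum was 7.26 and 5.498 in Control and 8.81 and 11.5 in HAND1_OE. Relative to SPN the sum was higher in both HAND1_OE libraries, but this held for SPN alone among the 10 tested genes shared by most blood cells. Divided by RAC2, a GTPase of blood cells, the sum was 5.54 and 5.46 in Control and 1.88 and 1.81 in HAND1_OE. Over the 10 genes the ratio was lower in both HAND1_OE libraries for 8, overlapped for 1 (CD53) and was higher for 1 (SPN). The ratio depends on how far the divisor itself changed. Among the 8, LAPTM5, LCP1 and ARHGDIB overlapped between the groups, so for them the lower ratio only follows the fall of the sum. The part of blood cell number in the fall of the 10 genes was not tested.

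Single members differed in their ratio to SPN, which depends on that choice of gene. MS4A3 over SPN was 1.22 and 0.970 in Control and 1.25 and 1.11 in HAND1_OE, and TYROBP over SPN was 1.11 and 0.618 against 0.900 and 0.523, with groups that overlapped for both. FCER1G over SPN was 1.86 and 1.74 in Control and 3.55 and 5.25 in HAND1_OE, so the HAND1_OE libraries lay higher. AZU1 over SPN, at 0.119 and 0.0915 against 0.524 and 0.364, and CSF1R over SPN, at 0.0905 and 0.0405 against 0.203 and 0.299, were higher in HAND1_OE as well, from low values. With 2 libraries a group, an exact permutation test of such a ratio cannot go below 0.33, and none was made.

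**Figure D2:**
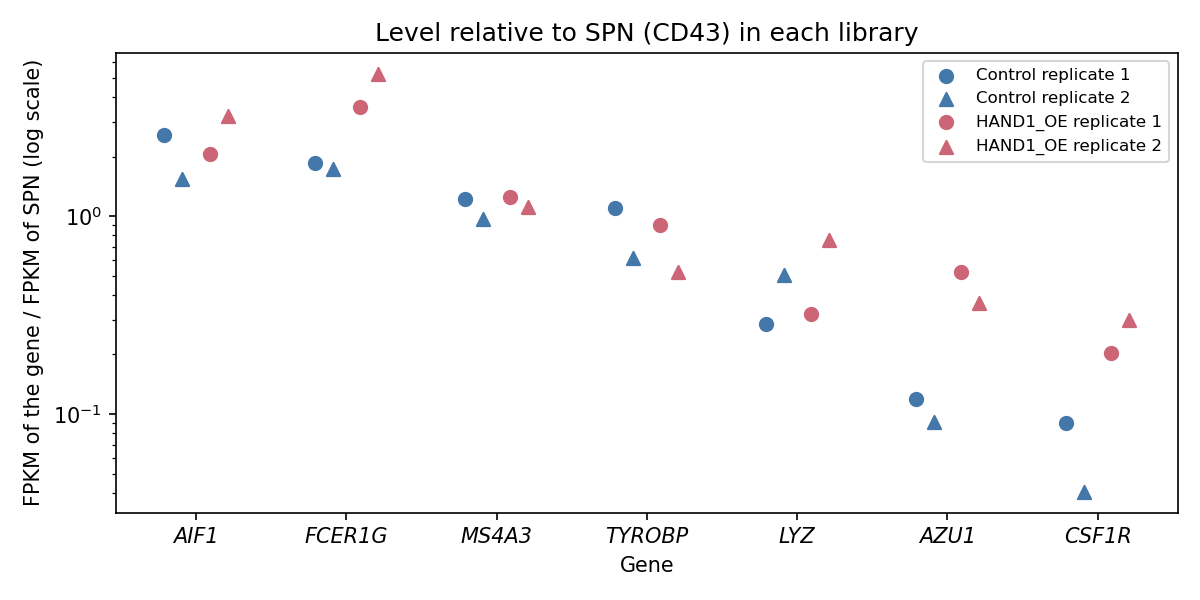
FPKM of each gene divided by FPKM of SPN in the same library, on a log scale, for the 7 genes above 0 in every library. MS4A3, TYROBP, AIF1 and LYZ overlap between the groups, while FCER1G, AZU1 and CSF1R lie higher in both HAND1_OE libraries.

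Other genes of the same pathways were read from lists of known pathway and lineage genes, which were drawn up with earlier results of these data known and are no independent evidence of direction. In several lists some called genes reached 1 FPKM only in Control, so their entry into the test and their direction are not independent, and these are named below or counted. Others, among them SPN, CSF3R and HCST, reached 1 FPKM in only 1 HAND1_OE library, so their entry needed a Control library too. The shares to set beside the calls of each list are those over all genes tested, 2.11% lower and 2.04% higher. Among 26 further myeloid receptors, adaptors and ligands, 9 were tested, of which 3 fell, 0 rose and 6 were not called. CSF3R, the receptor for granulocyte colony-stimulating factor, fell from 6.68 and 5.69 to 1.16 and 0.743 FPKM (change -1.89, adjusted p = 0.0140). HCST (DAP10), an adaptor whose gene ends 24 bases from the end of TYROBP on the opposite strand, fell by 1.63 on the log2 scale (adjusted p = 0.0428), and ITGB2, the shared chain of leukocyte integrins, by 1.49 (adjusted p = 0.0399), where ITGB2 reached 1 FPKM only in Control. CD33, a lectin of myeloid cells, was at 7.44 and 4.09 against 1.07 and 1.72 FPKM (change -1.46, adjusted p = 0.0671). MS4A4A, a relative of MS4A3, was at 8.15 and 3.96 against 5.91 and 6.05 FPKM (change 0.052, adjusted p = 0.963). MS4A2, another relative, was at 0.361 and 0.653 against 0.0934 and 0.174 FPKM and was not tested. CSF2RA and IL3RA, which lie in the pseudoautosomal region, were listed at 0 throughout.

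Downstream of the adaptors, 8 of 12 ITAM signalling genes were tested, of which 5 fell and 0 rose. The 4 not tested had overlapping groups, among them SYK, at 0.657 and 0.284 FPKM in Control against 2.18 and 0.653 FPKM in HAND1_OE. VAV1, an exchange factor for RAC proteins, went from 7.79 and 7.84 to 0.888 and 0.701 FPKM (change -2.30, adjusted p = 0.00730), and it reached 1 FPKM only in Control. PLCG2 (-1.46), the phosphatase genes INPP5D (-1.24) and PTPN6 (-1.15) and the scaffold gene LCP2 (-1.05) were the others that fell. The kinases BTK (-0.36, adjusted p = 0.462) and LYN (-0.75, adjusted p = 0.0854) were not called. Single libraries moved this count: 1 gene was called without Control replicate 1, 1 without Control replicate 2, 1 without HAND1_OE replicate 1 and 5 without HAND1_OE replicate 2.

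Of 15 transcription factors of granulocyte and monocyte development, 12 were tested, of which 5 fell and 0 rose, with 5 lower and 1 higher at an unadjusted p under 0.05. The higher gene was IRF8, a monocyte factor named after its values were seen, at 0.208 and 0.357 against 1.59 and 2.14 FPKM (change 1.16, adjusted p = 0.0583), so it reached 1 FPKM only in HAND1_OE. SPI1, which encodes PU.1, was at 26.2 and 22.4 FPKM in Control, against 3.79 and 1.52 FPKM in HAND1_OE (change -2.86, adjusted p = 0.0149). RUNX1, required for blood to form from endothelium, changed by -3.22 (adjusted p = 0.0132), GFI1, a repressor that acts in that step and in granulocytes, by -2.55 (adjusted p = 0.0150, at 1 FPKM only in Control), MYB by -1.73 (adjusted p = 0.0078) and CEBPB by -1.24 (adjusted p = 0.0214). CEBPA, which drives granulocyte genes, was at 0.768 and 1.69 against 0.918 and 3.05 FPKM (change 0.35, adjusted p = 0.762). KLF4 (-0.31) and EGR1 (-0.93) were not called.

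Further granule contents gave no call. Of 22 genes, 4 were tested and 0 passed in either direction in limma, with 1 lower (PRG2) and 0 higher at an unadjusted p under 0.05. Over all genes tested, 30.1% had both HAND1_OE libraries below both Control libraries and 16.2% had both above. That set leaves out 18 of these 22 genes, and those listed at 0 throughout can lie on neither side. In 9 of the 22 both lay below and in 0 above, mostly at levels near or under 1 FPKM. LCN2, for one, was at 1.29 and 0.983 FPKM in Control and listed at 0 in HAND1_OE. CTSC, whose product activates the granule proteases, was at 95.9 and 53.6 against 122 and 86.5 FPKM (change 0.51), and SERPINB1, an inhibitor of them, at 18.3 and 22.5 against 13.2 and 16.3 FPKM (change -0.44). Under 1 FPKM in every library were 15 of the 22 genes, among them 7 listed at 0, such as BPI and S100A8. CTSG, named after its values were seen because it is another protease of the azurophil granule, was at 0.679 and 0.608 against 0.315 and 0 FPKM. Of 17 phagocyte genes, 7 were tested, of which CD74, the invariant chain of class II presentation, fell (-1.07, adjusted p = 0.0354) and CYBA (-0.0044) and LGMN (0.75) were not called.

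**Figure D3:**
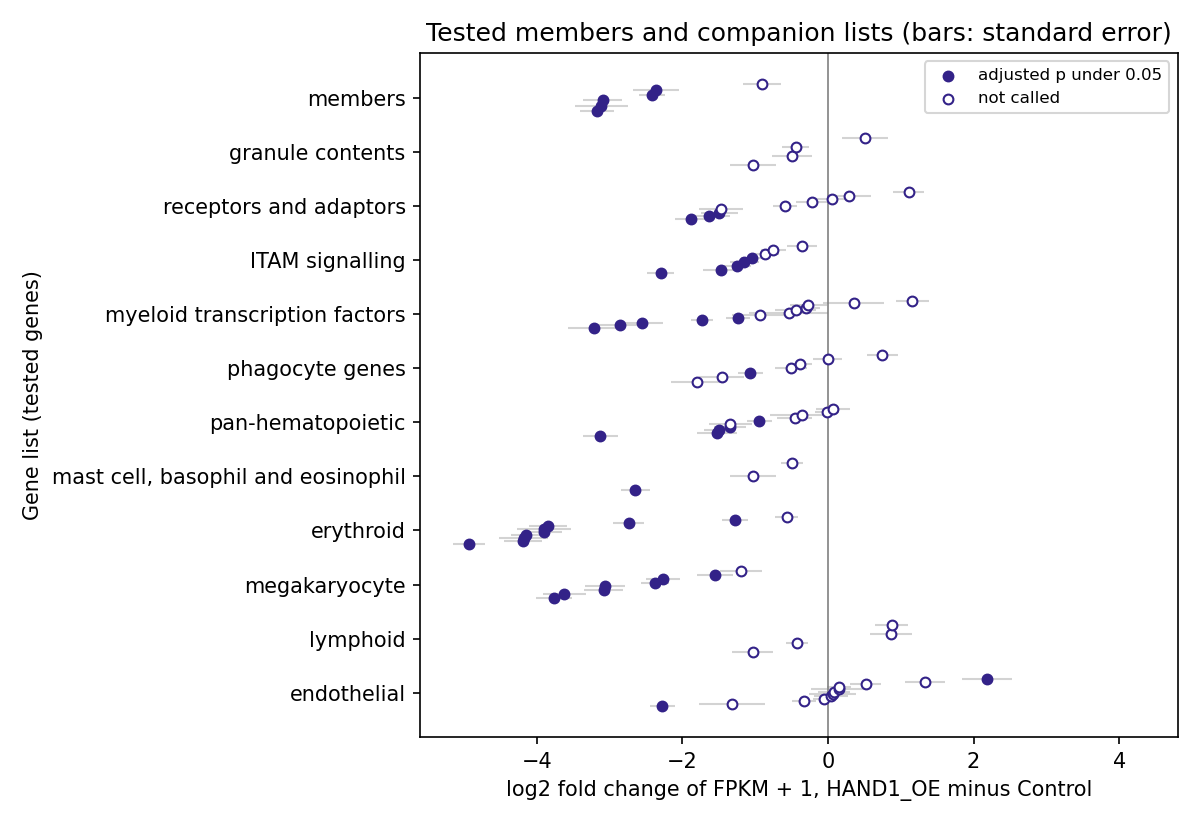
Change of each tested gene, HAND1_OE minus Control on the log2(FPKM + 1) scale with its standard error, by list, with filled points at a limma adjusted p under 0.05. Of the 6 tested members, 5 are filled and lie between -2.36 and -3.17, AZU1 is open at -0.91, and the granule contents hold no filled point.

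Markers of other blood lineages moved in the same libraries. Of 11 erythroid genes, 10 were tested and 9 fell, with a median change of -3.90, and of 10 megakaryocyte genes, 8 were tested and 7 fell, with a median of -2.72. Over all genes tested, the share called lower was 2.11%. Of these erythroid and megakaryocyte calls, 2 erythroid and 4 megakaryocyte genes reached 1 FPKM only in Control. The erythroid list summed to 856 and 1232 FPKM in Control and to 70.7 and 57.9 FPKM in HAND1_OE. Of 13 genes shared by most blood cells, 10 were tested and 5 fell, led by SPN, MYO1F (-1.53) and RAC2 (-1.49), with CD53 at 1 FPKM only in Control, while LAPTM5 (-0.018) and ARHGDIB (0.071) were not called. This list held 1 call without Control replicate 1, 2 without Control replicate 2, 3 without HAND1_OE replicate 1 and 2 without HAND1_OE replicate 2. PTPRC, which encodes CD45, was at 0.0227 FPKM or below in every library.

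Genes of mast cells, basophils and eosinophils were examined because FCER1G also forms part of the IgE receptor. Of 11 genes, 3 were tested, of which HDC, the enzyme that makes histamine, fell from 7.79 and 6.41 to 0.346 and 0.234 FPKM (change -2.65, adjusted p = 0.00700). HDC reached 1 FPKM only in Control, and with 1 FPKM required in every library the list held 0 calls. GATA2 (-0.49) and PRG2 (-1.03) were not called. The partner chains of that receptor, FCER1A and MS4A2, stayed under 1 FPKM in every library, and CLC and EPX were listed at 0. Of 12 lymphoid markers 4 were tested and 0 passed in limma, with 2 lower and 2 higher at an unadjusted p under 0.05. Of these, NKG7 (lower) reached 1 FPKM only in Control and CD3D (higher) only in HAND1_OE, so their entry and direction are not independent. Of the 12 endothelial markers CLDN5 fell (-2.27), VWF rose (2.18) and 10 were not called, with a median of 0.072. The part that each of these cell types has in the change of the 10 genes was not tested.

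Of 76 other protein-coding genes within 100 kb of a member, 46 were tested, of which 3 fell, 2 rose and 41 were not called, with a median change of -0.080. The shares were 6.52% lower and 4.35% higher, against 2.11% and 2.04% of all genes tested, from few genes. PDGFRB, a receptor kinase related to CSF1R whose gene ends 465 bases from it, was at 7.92 and 5.09 FPKM in Control, against 32.6 and 25.9 FPKM in HAND1_OE. It rose (change 2.03, adjusted p = 0.0164) while CSF1R, at its low level, was lower in both HAND1_OE libraries. ADAMTS4, near FCER1G, also rose (2.21, adjusted p = 0.0312), a value that is uncertain because the library kit does not mark strand. Near AIF1, LY6G6F (-1.87) and AL662899.2 (-1.95) fell, but they overlap on the same strand, so their reads cannot be told apart, and both reached 1 FPKM only in Control. LST1, 26275 bases from AIF1, was at 5.22 and 2.99 against 0.894 and 0.0927 FPKM (change -1.79, adjusted p = 0.0615). In 19 of the 76 neighbours, HCST and LST1 among them, both HAND1_OE libraries lay below both Control libraries, and in 5 both lay above. The shares over all genes tested were 30.1% and 16.2%, a set that leaves out 30 of the 76.

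**Figure D4:**
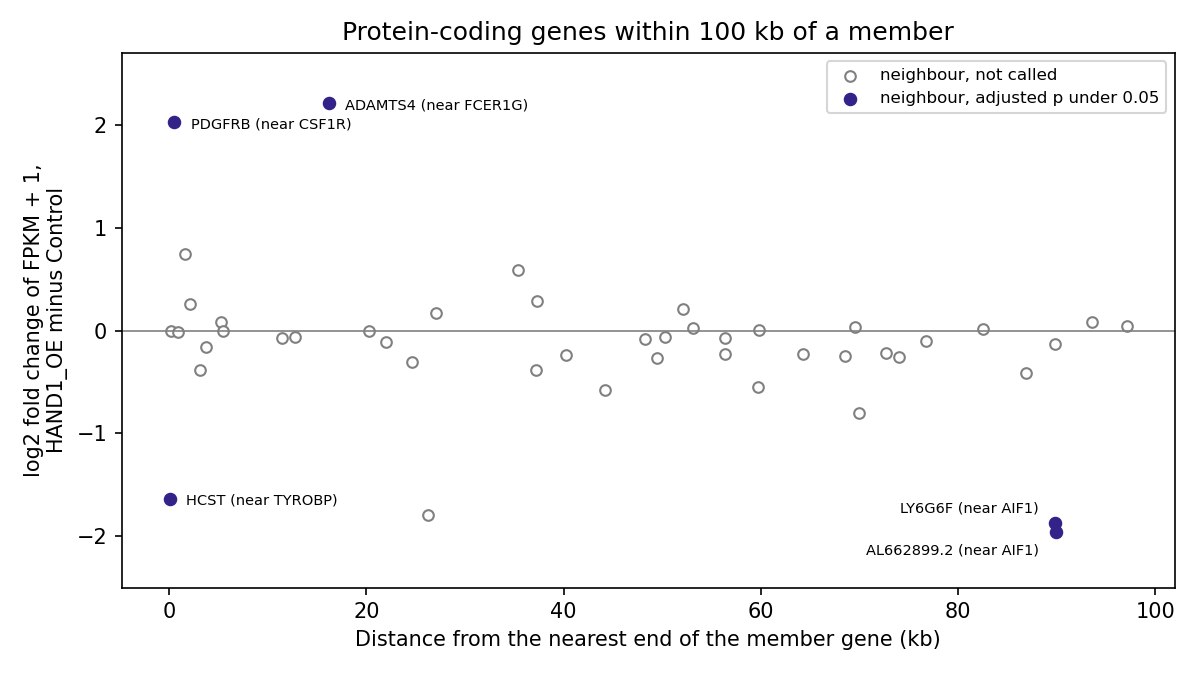
Change of the 46 tested neighbours, HAND1_OE minus Control on the log2(FPKM + 1) scale, against the distance in kb from the nearest member. PDGFRB at 2.03 and ADAMTS4 at 2.21 lie above, HCST at -1.63, LY6G6F at -1.87 and AL662899.2 at -1.95 below, and the 41 open points are not called.

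The calls of the 5 genes did not depend on a single library. With each library left out in turn all 5 were called lower each time, where the lone library of a group is assumed to vary like the others. They were also called with a pseudocount of 0.1, after quantile normalization, after median-ratio scaling and without the mean-variance trend. When every gene above 0 was tested, none of the 5 passed (adjusted p = 0.153 to 0.198), although 7 of the 8 members in that fit were lower at an unadjusted p under 0.05. That fit called 0 genes in either direction, against 2352 lower and 1458 higher at an unadjusted p under 0.05.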

How the data were processed

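The authors deposited one table with a value per gene and library, taken here as FPKM since the study draws its plot of these cells in that unit and library totals differ, with values that need not be whole. The submitters' processing notes name BWA, Bowtie, RSEM and hg19, with no versions or roles, but the coordinates match GRCh38: 97.6% of the 57966 genes found in GENCODE release 29 had the same span. Starts were converted to count from 1. From 58365 rows, 45 Y copies of pseudoautosomal genes and 91 further rows sharing a gene ID were left out. The absolute depth is unknown, so no counting interval is given.

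Groups came from the sample titles. Genes that reached 1 FPKM in 2 or more libraries entered limma (version 3.58.1 under R 4.3.3) as log2(FPKM + 1), using its trend of variance on mean and Benjamini-Hochberg adjustment over all genes tested, and on simulated data the share of false calls exceeded the nominal rate. From each list, up to 4 called genes with the largest changes and up to 2 tested genes with the highest means that were not called are named, beside HAND1, PECAM1, fixed markers and direct neighbours. LCP2, CEBPB, IRF8 and the low or untested genes named were added after their values were seen. The members and lists were chosen with earlier results of these data known. One gene near a member is not reported here.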

Additional observations from a re-analysis of the deposited data

How the results depend on the processing

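Alternatives were the pseudocount, the filter, the scaling, the trend, protein-coding genes alone, a fold change of at least 2, each library left out and the replicate block. The direction of HAND1 and of the 6 tested members was the same in each fit in which they were tested. With all genes above 0 tested, 0 members, 0 genes of any list and 0 genes in all were called lower and 0 higher, and the changes of LYZ, TYROBP, FCER1G, AIF1, MS4A3 and HAND1 stayed as they were with adjusted p-values of 0.153 to 0.198. With 1 FPKM required in every library, TYROBP, LYZ and AZU1 were no longer tested, and 3 members, 1 receptor or adaptor, 3 pan-hematopoietic, 0 mast cell, 3 megakaryocyte and 1 neighbour gene were called lower. The pan-hematopoietic count was also 3 with a pseudocount of 0.1, quantile normalization and median-ratio scaling. With protein-coding genes alone, 3 phagocyte genes and 5 neighbours were called lower. Scaling moved the split of calls, with 352 higher and 262 lower after median-ratio scaling and 355 and 266 after quantile normalization, against 299 and 309.

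With the replicate number as a block, 712 genes were called lower and 597 higher, and 5 members, 3 phagocyte, 1 lymphoid and 5 neighbour genes were called lower. Nothing in the labels says that a number marks a shared culture or day, and deviations of same-numbered libraries correlated at 0.383 over genes, so the pairing remains unknown. With single libraries left out, 137 to 309 genes were called lower and 134 to 266 higher. Of the lists, 1 to 5 ITAM signalling, 0 to 1 phagocyte, 1 to 3 pan-hematopoietic, 1 to 2 endothelial and 0 to 4 neighbour genes were called lower. Both Control libraries were needed for the counts over all genes: 144 lower and 141 higher without Control replicate 1, and 137 and 134 without Control replicate 2. The neighbour count was 0 without Control replicate 2, the phagocyte count 0 without Control replicate 1, and the endothelial count 2 without HAND1_OE replicate 2. The cause of these differences was not tested.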
